A study of Mus musculus with 4 samples.

Results

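The checkpoint receptors PD-1 (Pdcd1), LAG-3 (Lag3), CTLA-4 (Ctla4), CD160 (Cd160) and BTLA (Btla) were analysed together with the PD-1 ligands PD-L1 (Cd274) and PD-L2 (Pdcd1lg2) and with HVEM (Tnfrsf14), the shared ligand of BTLA and CD160. They were chosen by name, and are 8 of the 32285 genes counted. Each symbol had 1 identifier. The spleens came from 4 irradiated BALB/c recipients on day 23 after bone marrow transplantation (BMT), and each spleen gave 1 library of single cells. All recipients were given 10000 WEHI-3B cells, a mouse AML line, with C57BL/6 BM, and 200000 donor Tc on day 2. In 2 mice BM and Tc came from Havcr2fl/fl donors, which carry a floxed Havcr2 (TIM-3) gene and no Cre. In the other 2 mice they came from Havcr2fl/fl;E8icre/+ donors, in which Cre under E8i, an enhancer of the Cd8a gene, is meant to remove Havcr2 from CD8+ cells. Both groups had thus been irradiated, carried AML and had the floxed gene, and there was no group without leukemia or transplantation. The study used mice of both sexes and gives 1 range of ages, that of young adults, for all its mice, without the age or sex for each library.

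Checkpoint receptors restrain activated Tc. PD-1 binds PD-L1 and PD-L2 and recruits the phosphatase SHP-2. CTLA-4 competes with CD28 for CD80 and CD86 and is held at a high level by Treg cells. LAG-3 binds MHC class II and other ligands. CD160 and BTLA both bind HVEM, a member of the TNF receptor family. On Tc that meet antigen for a long time several of these receptors appear together, first on precursor exhausted (TPEX) cells that keep the transcription factor TCF1 (Tcf7) and then on terminally exhausted (TTEX) cells. PD-L1 is raised by interferons on many cell types.

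The ligand genes Cd274 and Pdcd1lg2 are neighbours on chromosome 19 of GRCm38 (mm10). Cd274 lies at chr19:29367455-29388095 on the plus strand, and Pdcd1lg2 begins 22823 bases after it, at chr19:29410919-29471161 on the same strand. Pdcd1 (chr1:94038305-94052553, minus) and Ctla4 (chr1:60887000-60915832, plus) share chromosome 1. Lag3 lies at chr6:124904361-124911705 (minus), Cd160 at chr3:96798763-96829351 (minus), Btla at chr16:45224315-45257670 (plus) and Tnfrsf14 at chr4:154921933-154928563 (minus). All 8 are protein-coding genes in GENCODE M21. The promoters of the 3 ligand genes are shown because PD-L1 is a target of interferons and Cd274 was common in a cluster of other cells led by interferon-stimulated genes, as given with the other cells. They are the 250 bases before the RefSeq start on GRCm38.p6, which was matched for 7 of the 8 genes with 8 windows. Each was searched on both strands for GAAA followed by any 2 bases and GAAA again, the letters that interferon-stimulated factors bind, which are in 2.98% of 32851 promoters of the same length. Capitals mark a match, and lower case all other bases.
Cd274 (chr19:29367188-29367437, plus strand): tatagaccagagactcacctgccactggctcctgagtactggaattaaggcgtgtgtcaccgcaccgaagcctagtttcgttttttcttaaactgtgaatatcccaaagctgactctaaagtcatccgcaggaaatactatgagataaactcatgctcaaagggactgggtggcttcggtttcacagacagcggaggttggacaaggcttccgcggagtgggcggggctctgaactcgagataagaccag
Pdcd1lg2 (chr19:29410669-29410918, plus strand): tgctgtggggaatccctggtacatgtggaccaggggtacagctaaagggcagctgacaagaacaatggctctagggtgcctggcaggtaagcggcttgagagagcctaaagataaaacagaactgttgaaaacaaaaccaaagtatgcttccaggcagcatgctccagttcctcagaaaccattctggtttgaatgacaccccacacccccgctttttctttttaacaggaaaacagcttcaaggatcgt
Tnfrsf14 (chr4:154928078-154928327, minus strand): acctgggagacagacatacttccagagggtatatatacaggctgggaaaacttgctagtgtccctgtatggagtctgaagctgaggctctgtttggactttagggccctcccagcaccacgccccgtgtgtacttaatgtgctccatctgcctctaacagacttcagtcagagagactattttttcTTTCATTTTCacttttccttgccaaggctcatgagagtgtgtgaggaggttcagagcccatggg
The windows of Cd274 and Pdcd1lg2 do not hold the motif. The window of Tnfrsf14, which lies inside the longer gene model of GENCODE, holds it on its other strand, and the match begins 64 bases before the start. Another motif, TTC followed by any 3 bases and GAA, is in 7.02% of the promoters and was searched in the same way. None of the windows shown holds it. Of the 7 genes with a window, only Tnfrsf14 held the GAAA motif and only Cd160 the TTC motif. These are matches of letters, and no match says only that the letters are not in the window.

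The gene that the Cre should remove was examined first. Havcr2 in CD8+ Tc stood at 61.2 and 7.94 CPM (UMIs of the gene scaled to the same total in each sum) in the Havcr2fl/fl;E8icre/+ replicates 1 and 2 and at 54.7 and 115 CPM in the Havcr2fl/fl replicates 1 and 2. Only the library labelled Havcr2fl/fl;E8icre/+ replicate 2 was therefore low, and the library labelled Havcr2fl/fl;E8icre/+ replicate 1 lay between the 2 controls. A Havcr2 UMI was found in 283 of 1530 CD8+ Tc of Havcr2fl/fl;E8icre/+ replicate 1 and in 38 of 954 of Havcr2fl/fl;E8icre/+ replicate 2. The deleted part is not given in the sources used here. Whether the counted 3′ tag lies inside it was not tested, nor was the cause of the difference between these 2 libraries. Directions by genotype below are those of the labels. The libraries held 1511 to 6737 barcodes with 17693991 to 55045903 gene UMIs, and each pair of them shared at most 6 barcodes. After filters 11513 cells remained, of which 4258 were CD8+ Tc, 1755 were CD4+ Tc, 221 had RNA of both lineages, 535 Tc had neither and 4744 were other cells. Havcr2fl/fl replicate 2 was the shallowest in CD8+ Tc, with a median of 3026 UMIs per cell against 4748.5 to 6974 in the other libraries. Nearly all cells of the Tc clusters had a UMI of a Cd3 gene (99.2% to 100% per cluster), against 4.6% to 19.6% in the clusters of other cells, so RNA of Tc was also seen in barcodes of other cells.

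Since depth differed, shares of cells with a UMI of a gene were read after each cell was thinned to 2000 UMIs. This left out 205 CD8+ Tc, 88 CD4+ Tc and 137 other cells that had fewer. Of these, 148 CD8+ Tc and 54 CD4+ Tc were of Havcr2fl/fl replicate 2, so its shares rest on its deeper cells. The share in the other cells, whose median was 16758.5 UMIs before thinning, is given beside each. It is a background only for a gene that those cells lack, and some of their clusters held Cd274, Btla or Tnfrsf14. A cluster with Tc genes among them held Pdcd1, Lag3 and Cd160, and Lag3 was seen in a further cluster, as given with the other cells. A UMI shows captured RNA of a gene's 3′ end and not protein on the surface, and genes differ in capture, so shares of different genes are not ranked against each other.

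Pdcd1 was found in 44.4% ± 2.61 of CD8+ Tc (SD, n = 4 libraries), in 31.0% ± 2.18 of CD4+ Tc and in 1.25% of other cells. Lag3 was found in 41.7% ± 4.42, 20.5% ± 4.08 and 1.06%, and Cd160 in 37.6% ± 2.42, 5.82% ± 1.40 and 0.58%. These 3 receptors were thus more common in CD8+ Tc. Ctla4 had the opposite order, with 6.13% ± 1.19 of CD8+ Tc, 16.7% ± 4.59 of CD4+ Tc and 0.43% of other cells. Btla was found in 3.05% ± 0.70 of CD8+ Tc, 9.14% ± 1.54 of CD4+ Tc and 0.99% of other cells. Cd274 reached 3.89% ± 0.35 and 6.1% ± 1.79 against 2.27%, and Pdcd1lg2 3.05% ± 0.33 and 5.67% ± 1.49 against 0.21%. Tnfrsf14 was at 0.64% and 0.73% in Tc and at 2.22% in other cells, where Erythroid-like clusters held it and 5 of the 16 clusters had no thinned cell with it. Of the Tc with UMIs of both lineages 35.9% had Pdcd1, and of those with neither 16.4%, beside 12.2% of the latter with Foxp3. Without thinning, Pdcd1 was found in 69.3% of CD8+ Tc and 46.7% of CD4+ Tc, Lag3 in 66.3% and 33.3% and Cd160 in 59.4% and 10.9%.

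UMIs were next summed over all CD8+ Tc and all CD4+ Tc of each mouse, and the sums were compared by the quasi-likelihood test of edgeR with the mouse as a block. Sums are given as CPM after TMM scaling, with the libraries in the order Havcr2fl/fl;E8icre/+ replicates 1 and 2, then Havcr2fl/fl replicates 1 and 2. In this comparison 24.4% of the genes tested passed the threshold (adjusted p under 0.05, 2657 of 10875 genes), with a median log2 fold change of 0.004 over all of them. Of the 8 genes, 7 passed it, 3 of them higher in CD8+ Tc and 4 higher in CD4+ Tc. For each of these 7 genes the difference had the same direction in 4 of 4 mice, and the sums of the 2 lineages did not overlap. The share of all genes with the same direction or no overlap was not counted, here or in the comparisons below.

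Pdcd1 sums were 324, 290, 364 and 312 CPM in CD8+ Tc and 193, 227, 242 and 207 CPM in CD4+ Tc. This is a log2 change of 0.57 ± 0.069 (SE, adjusted p = 3.94e-05 by edgeR). Lag3 sums were 287, 258, 362 and 274 CPM against 147, 118, 130 and 121 CPM, a log2 change of 1.17 ± 0.079 (adjusted p = 1.48e-07 by edgeR). Every CD8+ sum of both genes lay above every CD4+ sum. Cd160 showed the widest gap of the receptors higher in CD8+ Tc, with 244, 273, 284 and 287 CPM against 23.9, 43.5, 38.8 and 38.8 CPM and a log2 change of 2.92 ± 0.10 (adjusted p = 4.06e-10 by edgeR). Among the CD4+ sums the lowest was that of Havcr2fl/fl;E8icre/+ replicate 1. Cd160 is known as a receptor of NK cells and cytotoxic CD8+ cells.

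Ctla4 sums were 34.5, 29.5, 41.5 and 29.3 CPM in CD8+ Tc and 110, 81.1, 80.2 and 90.3 CPM in CD4+ Tc, a log2 change of -1.45 ± 0.10 (adjusted p = 2.99e-07 by edgeR). Btla sums were 16.2, 18.2, 16.3 and 11.3 CPM against 57.4, 58.2, 62.2 and 43.7 CPM, a log2 change of -1.81 ± 0.10 (adjusted p = 2.85e-08 by edgeR). Havcr2fl/fl replicate 2 had the lowest Btla sum of both lineages, and still the 2 lineages were apart. The ligands followed the CD4+ side with smaller differences. Cd274 sums were 15.5, 20.6, 22.0 and 16.8 CPM in CD8+ Tc and 28.7, 36.0, 24.7 and 24.3 CPM in CD4+ Tc, a log2 change of -0.67 ± 0.14 (adjusted p = 0.00259 by edgeR). Pdcd1lg2 sums were 13.3, 22.9, 12.7 and 14.9 CPM against 28.1, 33.5, 32.1 and 37.9 CPM, a log2 change of -0.98 ± 0.15 (adjusted p = 0.000280 by edgeR). Tnfrsf14 rested on 10 to 31 UMIs per CD8+ sum and 3 to 15 per CD4+ sum, and its log2 fold change of 0.19 ± 0.35 did not pass (adjusted p = 0.755 by edgeR).

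**Figure D1:**
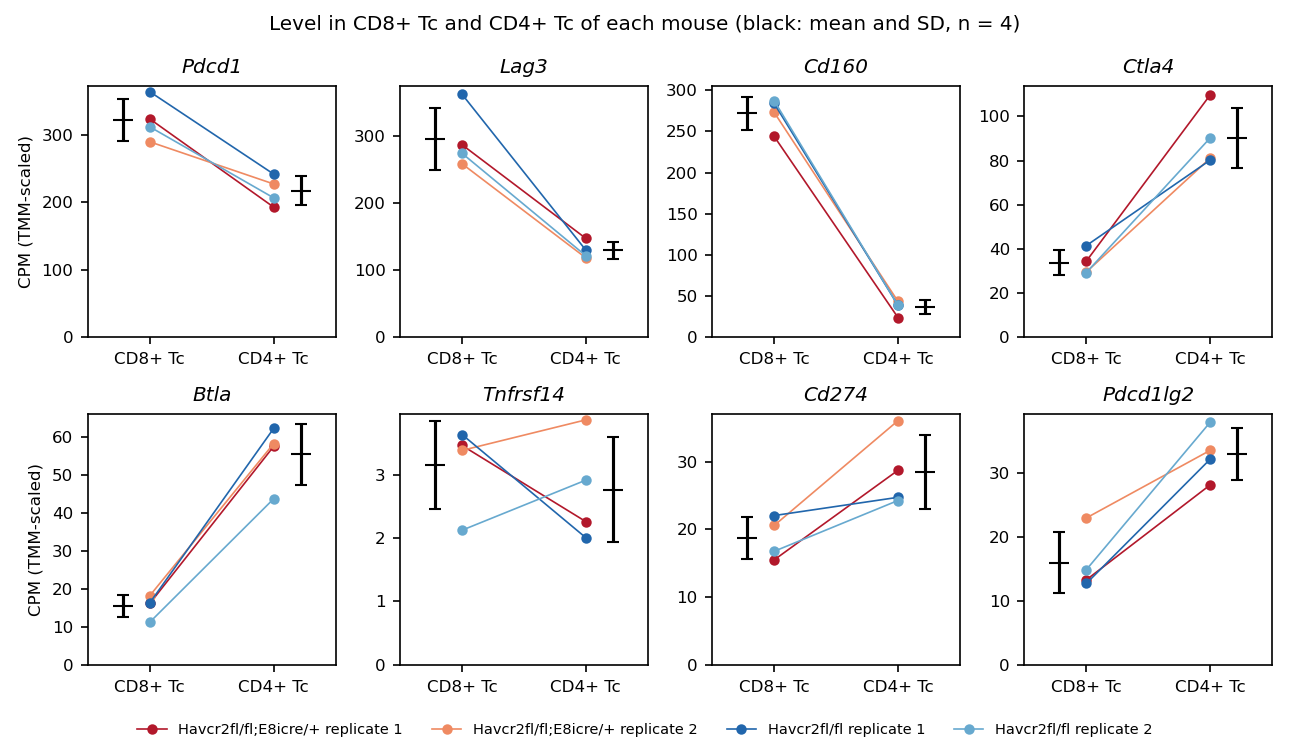
TMM-scaled CPM (vertical axis, from 0, with its own scale for each gene) of the 8 genes in the summed CD8+ Tc and CD4+ Tc of each mouse. Each line joins the 2 sums of a mouse, colours mark the 4 libraries, and black marks give the mean and SD (n = 4). All lines fall from CD8+ to CD4+ Tc for Pdcd1, Lag3 and Cd160 and rise for Ctla4, Btla, Cd274 and Pdcd1lg2.

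Lists of genes that work with these receptors were read in the same comparison. Of 6 CTLA-4 and CD28 family partners, 3 were higher in CD4+ Tc, namely Icos (log2 fold change -1.67), Icosl (-1.48) and Cd28 (-1.11), and 1 was higher in CD8+ Tc, Cd86 (0.65), with a median of -0.62 over the list. The costimulators ICOS and CD28 thus had the same order as CTLA-4. Of 4 HVEM network partners tested, 3 were higher in CD4+ Tc, namely the lymphotoxin genes Lta (-1.43) and Ltb (-0.75) and the HVEM ligand LIGHT, Tnfsf14 (-1.06). Of 6 PD-1 partners tested, the phosphatase genes Ptpn11 (-0.53) and Ptpn6 (-0.43) were higher in CD4+ Tc and the kinase gene Csk (0.24) in CD8+ Tc. Of 5 LAG-3 partners tested, Lgals3 (0.34), the gene of galectin-3, passed. Of 6 genes of the interferon-gamma input to PD-L1, 2 were higher in CD8+ Tc (Irf1, 0.34, and Jak1, 0.20) and 3 in CD4+ Tc, among them Jak2 (-0.98) and Ifngr1 (-0.49). Of 9 factors known to act on Pdcd1, 4 were higher in CD8+ Tc, among them Nr4a2 (1.94), Eomes (1.72) and Tox (0.64), and 2 in CD4+ Tc, among them Irf4 (-0.82). Of 10 other inhibitory receptors, 4 were higher in CD8+ Tc, among them Cd244a (3.66) and Entpd1 (0.67), and 2 in CD4+ Tc, Cd5 (-1.60) and Klrg1 (-1.54).

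CD8+ Tc were then divided into 11 clusters and CD4+ Tc into 6, with the 8 genes and Havcr2 kept out of the genes that made the clusters. Clusters were named from marker genes, none of them among the 8, and those that met no name are given by number and leading genes. The TTEX-like cluster had 6 of 7 markers of that name raised, Tox not among them, and 5 Teff markers. It held this name at the clustering resolution used here only, as given at the end. The interferon-stimulated-like CD8+ cluster kept its name in far fewer cells at other resolutions, also given at the end. Its shares below are thus not those of cells with interferon-stimulated genes alone. The shares below are means over 4 libraries of thinned cells and are a description, with no test. Neighbours in an order are said to be apart only where the gap between their means was larger than the larger of their SDs.

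In CD8+ Tc Pdcd1 was highest in TTEX-like cells (59.4% ± 10.4), followed by cluster 0, which was led by Fcer1g, Klrb1b and Ckb (55.2%), Teff-like cells (52.0%) and TPEX-like cells (47.8% ± 5.09). Neighbours among these 4 were not apart, whereas TPEX-like cells were apart from cluster 0 and from TTEX-like cells. A gap followed, and S phase-like cells (38.2%), interferon-stimulated-like cells (34.2%) and the other cycling cells were lower. Short-term effector-like cells, which have Klrg1, Cx3cr1 and Zeb2, had the lowest share (2.88% ± 3.68). They were 83 in all and 13 to 26 per library, and their number depended on the clustering resolution, as given at the end. In CD4+ Tc cluster 2, with Ccl3, Ccl4, Eomes and Gzmk, had the highest share of Pdcd1 (48.1%), cluster 0, with Il1rl1 and Ebi3, came next (42.4%), and Treg-like cells had 10.1% ± 12.6. Treg-like cells were 113 in all and 5 in Havcr2fl/fl replicate 1, and globin genes were among their 10 leading genes.

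Lag3 was found in 59.3% of Teff-like, 57.1% of TTEX-like and 55.4% of cluster 0 cells, and these 3 were apart from TPEX-like cells (35.4%). Short-term effector-like cells again had a low share of Lag3 (3.59%). In CD4+ Tc the order was cluster 2 (47.4%), Treg-like cells (25.8%) and CD4 precursor-like cells (16.6%). Cd160 was found in 50.7% of TTEX-like cells, 49.4% of cluster 0, 48.1% of interferon-stimulated-like and 43.4% of Teff-like cells. TPEX-like cells had 28.8% and short-term effector-like cells 9.58%. In CD4+ Tc cluster 2 had the most Cd160 (13.0%), and 0 of 104 thinned Treg-like cells had a UMI of it.

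Ctla4 was found in 41.8% ± 4.89 of Treg-like cells, apart from CD4+ cluster 0 (20%) and all others. In CD8+ Tc its share stayed between 0% in short-term effector-like cells and 8.88% in interferon-stimulated-like cells, and neighbours in that order were not apart. Btla was highest in the cells with precursor markers of both lineages, with 23.1% ± 7.77 of CD4 precursor-like cells and 9.11% ± 1.47 of TPEX-like cells, though the latter were not apart from the next CD8+ cluster (5.12% ± 6.04 in cluster 10). TTEX-like cells had 1.69% and Treg-like cells 0%. Cd274 was found in 11.7% of CD4 precursor-like cells, 8.03% of interferon-stimulated-like and 6.73% of TPEX-like CD8+ Tc and 2.88% of TTEX-like cells. Pdcd1lg2 was found in 8.78% of CD4+ cluster 0, 8.12% ± 8.80 of Treg-like cells, 5.83% of CD8+ cluster 0, 5.36% of TPEX-like and 1.17% of TTEX-like cells. Tnfrsf14 was at most 2.59% ± 3.39 in any Tc cluster.

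**Figure D2:**
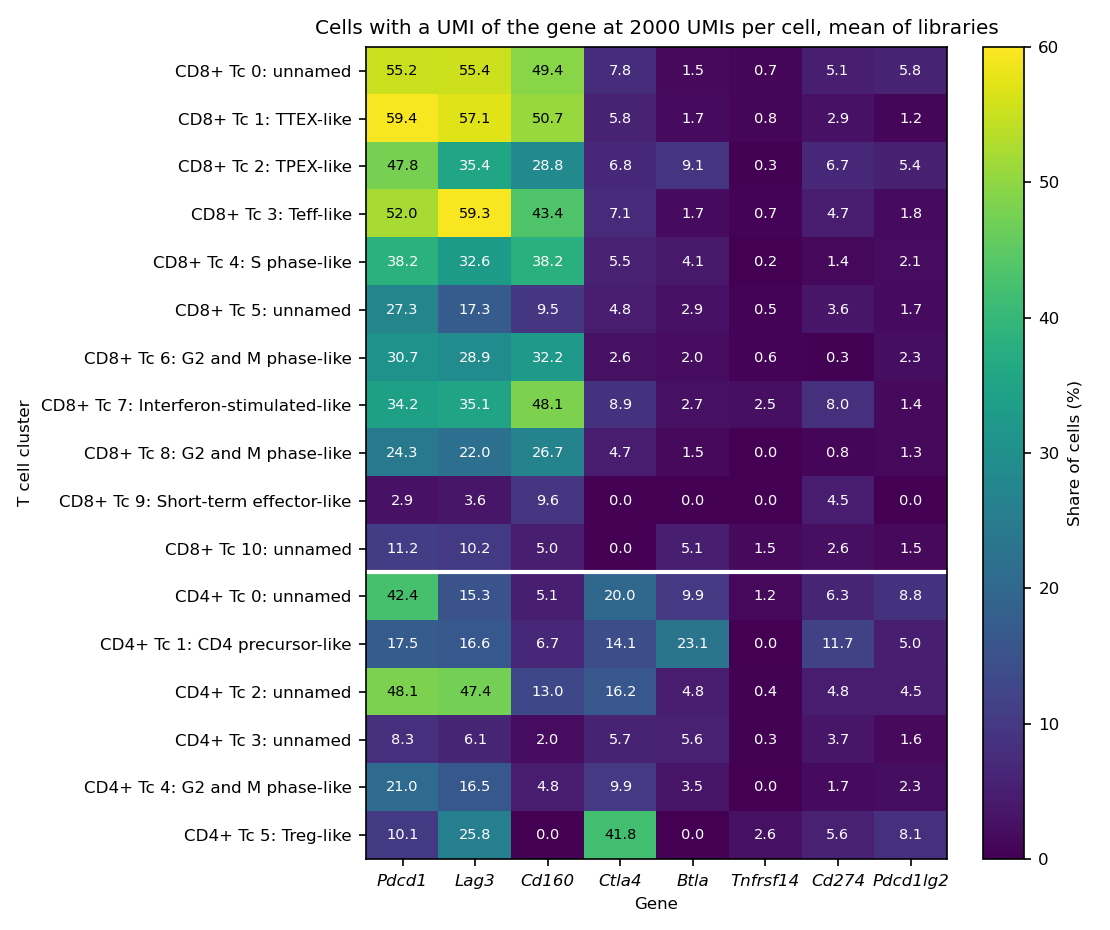
Share of cells with a UMI of each gene (colour, percent of thinned cells, mean of the libraries) in the 11 CD8+ and 6 CD4+ Tc clusters (rows) for the 8 genes (columns). Pdcd1, Lag3 and Cd160 are bright in TTEX-like, Teff-like and cluster 0 CD8+ Tc, Ctla4 in Treg-like cells and Btla in CD4 precursor-like cells.

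For a test over mice, cells of each mouse were split by a UMI of 1 marker gene, and the sums of both sides were compared with the mouse as a block. Such a split is not a test of the clusters. At a higher clustering resolution Tcf7 also led 146 Naive or memory-like CD8+ Tc, and how cells with Tcf7 were spread over the clusters was not counted. TPEX-like cells had Pdcd1 in 47.8%, against 27.3% and 11.2% in CD8+ clusters 5 and 10. The Tcf7 split thus does not compare TPEX-like cells with other CD8+ Tc. A cell without a UMI of the marker may still express it. Between CD8+ Tc with a UMI of Tcf7 (75 to 238 cells per library) and those without, 15.0% of genes passed (1540 of 10239) and 4 of the 8 genes did. Pdcd1 sums were 227, 259, 195 and 187 CPM with Tcf7 and 325, 292, 383 and 313 CPM without, a log2 change of -0.56 ± 0.11 (adjusted p = 0.000781 by edgeR). Lag3 sums were 179, 201, 140 and 127 CPM against 290, 271, 389 and 279 CPM, a log2 change of -0.87 ± 0.13 (adjusted p = 3.60e-05 by edgeR). Cd160 sums were 155, 205, 138 and 199 CPM against 247, 289, 301 and 286 CPM, a log2 change of -0.68 ± 0.10 (adjusted p = 5.57e-05 by edgeR). All 3 were lower with Tcf7 in 4 of 4 mice, with no overlap. Btla had the opposite direction, with 40.4, 31.9, 21.3 and 39.8 CPM against 12.2, 12.7, 15.1 and 8.12 CPM and a log2 change of 1.48 ± 0.22 (adjusted p = 4.62e-05 by edgeR).

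The ligands and CTLA-4 did not pass in this split. Cd274 had a log2 change of 0.51 ± 0.20 (adjusted p = 0.0967 by edgeR) and Pdcd1lg2 of 0.45 (adjusted p = 0.325), the latter 0.71 with an adjusted p of 0.0250 when Havcr2fl/fl replicate 1 was left out. Ctla4 (-0.04) and Tnfrsf14 (0.38) did not pass either. Among the lists, 3 of 4 HVEM network partners were higher with Tcf7 (Tnfsf14, 1.86, Lta, 1.81, and Ltb, 0.61), as were 2 of 6 PD-1 partners tested, the phosphatase genes Ptpn6 (1.01) and Ptpn11 (0.32). Of 6 CTLA-4 and CD28 family partners, the costimulator genes Icos (1.05) and Cd28 (0.84) were higher and Cd86 (-0.77) was lower. Of 6 genes of the interferon-gamma input to PD-L1, Ifng (-1.86) and Irf1 (-0.68) were lower, and none of 5 LAG-3 partners tested passed. Of 10 other inhibitory receptors 4 were lower with Tcf7, namely Havcr2 (-3.39), Cd244a (-3.16), Entpd1 (-2.70) and Cd200r1 (-1.82). Of 9 factors known to act on Pdcd1 5 were lower, among them Nr4a2 (-2.18), Prdm1 (-1.69), Eomes (-0.80) and Nfatc1 (-0.46).

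CD8+ Tc with a UMI of Mki67, a gene of cycling cells, were 128 to 480 per library and had a higher median depth (4551 to 9951 UMIs per cell) than those without (2791 to 6464). In this split 41.1% of genes passed (4173 of 10162). Of the 8 genes 6 passed, each with lower CPM in cells with Mki67. CPM, like the share in thinned cells, is relative to all UMIs, which were more per cell with Mki67. Amounts of RNA per cell were not compared. Cd274 sums were 8.86, 11.9, 16.2 and 9.95 CPM with Mki67 and 20.1, 24.9, 24.5 and 20.8 CPM without, a log2 change of -1.0 ± 0.16 (adjusted p = 4.15e-05 by edgeR). The 2 sides did not overlap. Pdcd1lg2 fell by 0.74 ± 0.16 on the log2 scale (adjusted p = 0.00119 by edgeR), Lag3 by 0.53 ± 0.069 (adjusted p = 5.49e-06), Pdcd1 by 0.47 ± 0.063 (adjusted p = 8.36e-06), Ctla4 by 0.41 ± 0.13 (adjusted p = 0.0208) and Cd160 by 0.29 ± 0.071 (adjusted p = 0.00282). Btla (-0.31, adjusted p = 0.223 by edgeR) and Tnfrsf14 (-0.68, adjusted p = 0.151) did not pass. All 6 genes tested of the interferon-gamma input to PD-L1 were lower with Mki67. So were 3 of 6 CTLA-4 and CD28 family partners, 2 of 4 HVEM network partners and 4 of 10 other inhibitory receptors. Of 6 PD-1 partners tested 1 was higher and 3 were lower, of 9 factors known to act on Pdcd1 1 was higher and 4 were lower, and of 5 LAG-3 partners none passed. The calls of Pdcd1lg2 and Ctla4 were not made by DESeq2 (adjusted p = 0.0703 and 0.263), and that of Ctla4 was lost without Havcr2fl/fl;E8icre/+ replicate 1 (adjusted p = 0.352) and without Havcr2fl/fl replicate 1 (adjusted p = 0.0577).

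CD8+ Tc with a UMI of Havcr2 were 283, 38, 103 and 338 in the 4 libraries, with higher median depths (3733.5 to 8853 UMIs per cell) than those without (2850 to 6514). In this split 3.69% of genes passed (369 of 10013). Lag3 sums were 346, 315, 487 and 315 CPM with Havcr2 and 257, 253, 305 and 248 CPM without, a log2 change of 0.45 ± 0.078 (adjusted p = 0.00723 by edgeR), and it was higher in 4 of 4 mice with no overlap. The call was lost without Havcr2fl/fl;E8icre/+ replicate 1 (adjusted p = 0.0543), without Havcr2fl/fl replicate 1 (adjusted p = 0.0710) and without Havcr2fl/fl replicate 2 (adjusted p = 0.0513). Btla sums were 7.04, 2.97, 11.6 and 8.34 CPM, from 1 to 15 UMIs, against 18.3, 18.9, 18.0 and 12.4 CPM, a log2 change of -1.02 ± 0.25 (adjusted p = 0.0419 by edgeR). This call was lost without each of the same 3 libraries (adjusted p = 0.104 to 0.329), and DESeq2 did not make it (adjusted p = 0.188). Pdcd1 had a log2 change of 0.23 ± 0.088 (adjusted p = 0.20 by edgeR), which passed when Havcr2fl/fl;E8icre/+ replicate 2, with its 38 cells, was left out (0.32, adjusted p = 0.0131). Tnfrsf14 had too few UMIs to be tested. From the lists, Nr4a1 (1.83), Nr4a2 (0.92), Ifng (0.63), Entpd1 (0.44) and Cd200r1 (0.39) were higher with Havcr2, and Ptpn6 (-0.94) and Ltb (-0.62) were lower.

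CD4+ Tc with a UMI of Foxp3, the gene of the Treg transcription factor, were compared in 3 libraries with 33, 57 and 17 such cells; Havcr2fl/fl replicate 1 had 6 and was left out of this comparison. The Treg genes Il2ra and Ikzf2 were higher in these cells in each of the 3 libraries, with 377 to 472 CPM against 33.8 to 54.4 CPM and with 1453 to 2137 CPM against 106 to 135 CPM. Of the genes tested 6.74% passed (517 of 7673), and 4 of the 8 did. Ctla4 sums were 245, 319 and 404 CPM with Foxp3 and 110, 63.4 and 74.9 CPM without, a log2 change of 1.95 ± 0.22 (adjusted p = 6.31e-07 by edgeR). Pdcd1 sums were 25.8, 47.3 and 96.9 CPM against 216, 265 and 228 CPM, a log2 change of -2.37 ± 0.27 (adjusted p = 1.01e-06 by edgeR). For both genes the 2 sides were far from overlapping, in opposite directions.

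Btla sums were 12.9, 17.7 and 16.2 CPM with Foxp3 against 64.1, 67.3 and 48.5 CPM, a log2 change of -1.98 ± 0.41 (adjusted p = 0.00225 by edgeR). The sums with Foxp3 held 543412 UMIs of all genes over the 3 libraries. Their Btla values, and to a lesser degree those of Pdcd1 above, therefore rest on few UMIs. DESeq2 did not make this call (adjusted p = 0.0793), and it was lost without Havcr2fl/fl;E8icre/+ replicate 2 (adjusted p = 0.112). Cd160 had 0 UMIs in 107 cells with Foxp3, among 543412 UMIs of all genes, against 283 UMIs in 1407 cells without (39.1 CPM). With a floor of 3 counts over the whole group, 5.52 CPM, it was at least 7.09-fold lower. Lag3 had a log2 change of -0.54 ± 0.23 (adjusted p = 0.221 by edgeR), Cd274 of -0.18 and Pdcd1lg2 of -0.23, and none of these passed. Tnfrsf14 was not tested. The globin gene Hbb-bs, from red cells, stood at 53.9, 5223 and 18918 CPM in cells with Foxp3 and at 1093, 1189 and 1655 CPM in those without, and its part in these results was not tested. From the lists, Klrg1 (4.56), Nr4a1 (2.13), Prdm1 (1.67), Entpd1 (1.15), Ifngr1 (1.05), Lrba (0.95), which encodes a protein needed to keep CTLA-4 from degradation, and Ltb (0.74) were higher with Foxp3. Tnfsf14 (-4.17), Ifng (-2.58), Ptpn11 (-2.04), Lgals3 (-1.87), Eomes (-1.47), Cd96 (-1.34) and Tox (-0.90) were lower.

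**Figure D3:**
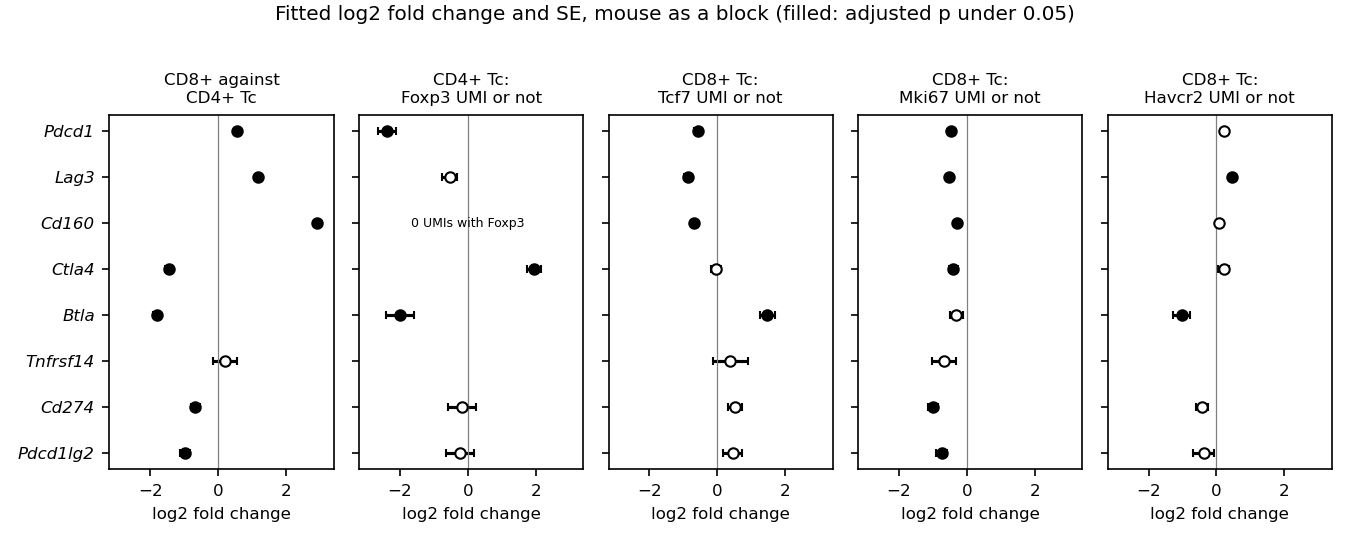
Fitted log2 fold change (horizontal axis) with its SE for the 8 genes (rows) in CD8+ against CD4+ Tc and in the splits by a UMI of Tcf7, Mki67, Havcr2 and Foxp3, with the mouse as a block (4 libraries, 3 for Foxp3). Filled points passed the threshold, a missing point is a gene that was not tested, and Cd160 in the Foxp3 split is marked as having 0 UMIs; Btla and Pdcd1 lie on opposite sides of 0 in the Tcf7 split.

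Next, it was examined how often a cell had UMIs of 2 of the genes at once. The expected number is that of independent detection within each library, and within each library and cluster for the value called within clusters. Ratios are given over all 4 libraries with the range over single libraries, as a description with no test. In 4053 thinned CD8+ Tc, 874 cells (21.6%) had both Pdcd1 and Lag3 against 733 expected, a ratio of 1.19 (1.17 to 1.26), and within clusters the ratio was 1.06 (1.04 to 1.13). Pdcd1 with Cd160 had a ratio of 1.11 (1.03 to 1.23), Pdcd1 with Ctla4 of 1.22 (1.05 to 1.54) and Lag3 with Cd160 of 1.11, and within clusters these were 1.03, 1.13 and 1.00. The excess of these pairs was therefore smaller once the clusters were taken into account. Lag3 with Btla went below 1, with 39 cells against 50.8 expected, a ratio of 0.77 (0.45 to 1.04). Pdcd1 with Havcr2 had a ratio of 1.20, and 1.07 within clusters.

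In 1667 thinned CD4+ Tc, Pdcd1 and Lag3 were seen together in 144 cells against 106 expected, a ratio of 1.36 (1.11 to 1.78), or 1.17 within clusters (0.95 to 1.34). Pdcd1 with Cd160 had a ratio of 1.45 (1.22 within clusters), and Lag3 with Cd160 of 1.71. Pdcd1 with Ctla4 had 112 cells and a ratio of 1.22. Pdcd1 with Btla was below 1 in each library, with 41 cells against 49.8 expected, a ratio of 0.82 (0.70 to 0.93), or 0.85 within clusters. Btla with the ligand gene Cd274 was above 1 in each library, with 20 cells against 11.1 expected, a ratio of 1.81 (1.73 to 2.75), or 1.37 within clusters.

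Of the 5 receptors Pdcd1, Lag3, Ctla4, Cd160 and Btla, a thinned CD8+ Tc had a mean of 1.33 ± 0.06 and a CD4+ Tc of 0.83 ± 0.07 (SD, n = 4 libraries). At least 3 of them were seen in 13.1% of CD8+ Tc and 4.48% of CD4+ Tc, and none of them in 23.4% and 43.0%. By cluster the mean was 1.75 in TTEX-like, 1.69 in cluster 0, 1.64 in Teff-like, 1.28 in TPEX-like and 0.16 in short-term effector-like CD8+ Tc. At least 3 receptors were seen in 22.0% of TTEX-like and 8.81% of TPEX-like cells. In CD4+ Tc the mean ran from 1.29 in cluster 2 to 0.93 in cluster 0, 0.78 in Treg-like cells and 0.28 in cluster 3, which was led by Ifitm1, Ifitm2 and Klrk1.

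**Figure D4:**
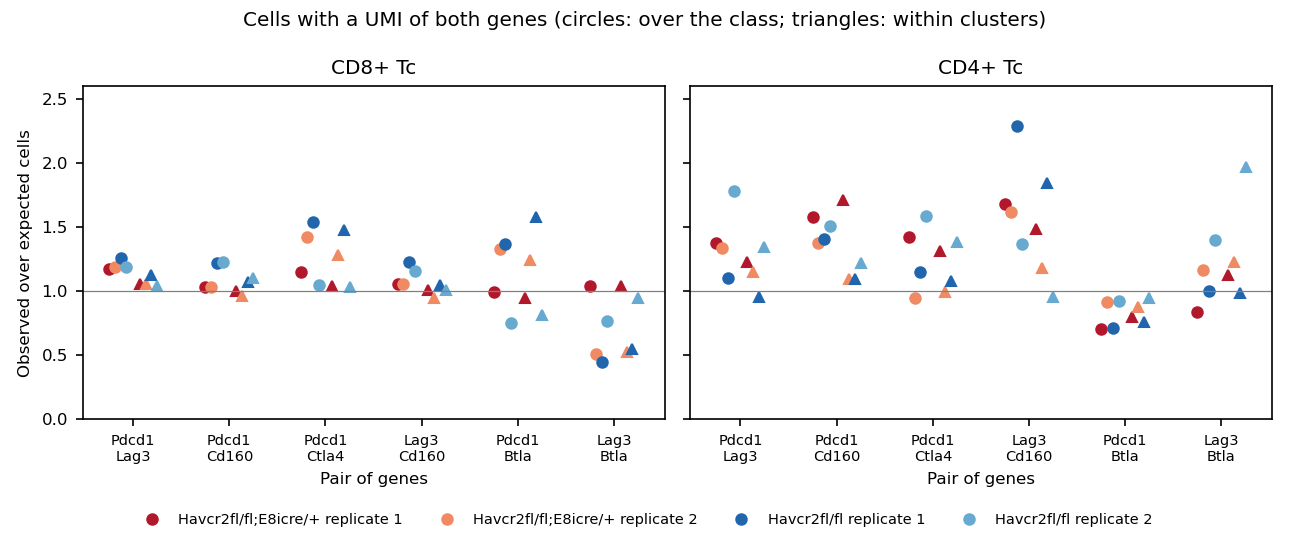
Observed over expected number of cells with UMIs of both genes of a pair (vertical axis, grey line at 1) in thinned CD8+ Tc (left) and CD4+ Tc (right), by library (colours). Circles are ratios over the whole class and triangles ratios within clusters; the triangles of Pdcd1 with Lag3 lie nearer to 1 than its circles.

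PD-1 ligands were then examined in the 4744 other cells. Per the labels Tc had been isolated from the spleen with a pan-T cell kit, and the study also names a sort of donor Tc, so these are cells that such steps are meant to remove. They were not separated here into cells of the AML, of the recipient and of the donor. Cd274 was most common in Neutrophil-like cluster 12, where 25 of 100 thinned cells had a UMI (25.0%, Wilson 95% interval 17.5% to 34.3%), with 34.5%, 23.8%, 20% and 20% in the 4 libraries. Neutrophil-like cluster 11, with Ltf and Camp among its markers, had no thinned cell with Cd274. Erythroid-like cluster 14, led by the interferon-stimulated genes Ifit1, Isg15 and Rsad2, had 15.6% (9.70% to 24.2%), with 10.0%, 12%, 29.4% and 14.7% in the libraries. The other named clusters were lower, with 3.20% of Stem and progenitor-like and 5.0% of Conventional dendritic-like cells (1.38% to 16.5%). By the mean over libraries, cluster 12 (24.6% ± 6.85) was apart from the highest Tc cluster, CD4 precursor-like cells (11.7% ± 4.55), and cluster 14 (16.5% ± 8.80) was not.

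Pdcd1lg2 was rare outside Tc. Basophil or mast-like cells had 3.21% (1.48% to 6.82%), or 22.2 to 28.6 CPM in the 4 libraries, and 14 of the 16 clusters had no thinned cell with it. Btla was found in 14 of 40 thinned Conventional dendritic-like cells (35.0%, 22.1% to 50.5%), with 106, 173, 207 and 239 CPM in the summed cells of the 4 libraries, of which Havcr2fl/fl replicate 1 had 6 cells. Thinning had left out 33 of the 73 cells of this cluster, among them 5 of the 6 in Havcr2fl/fl replicate 1. By the mean over libraries the share was 47.4% ± 37.4 (SD), so it varied widely between them. The CPM of Havcr2fl/fl;E8icre/+ replicate 1 and Havcr2fl/fl replicate 1 rest on 28394 and 9659 UMIs of all genes. Granulocyte-monocyte progenitor-like cells had 4.87% after thinning and 40.3% before it, at a median of 33083 UMIs per cell. Tnfrsf14 reached 4.96% (2.86% to 8.47%) in Erythroid-like cluster 6 and 4.68% in cluster 9. UMIs of Pdcd1, Lag3 and Cd160 were concentrated in cluster 10 of the other cells (20.5%, 16.7% and 10.0%), which had Tc genes and a median of 14492 UMIs per cell. Lag3 was also found in Basophil or mast-like cells (7.67% ± 6.35, mean and SD over libraries).

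**Figure D5:**
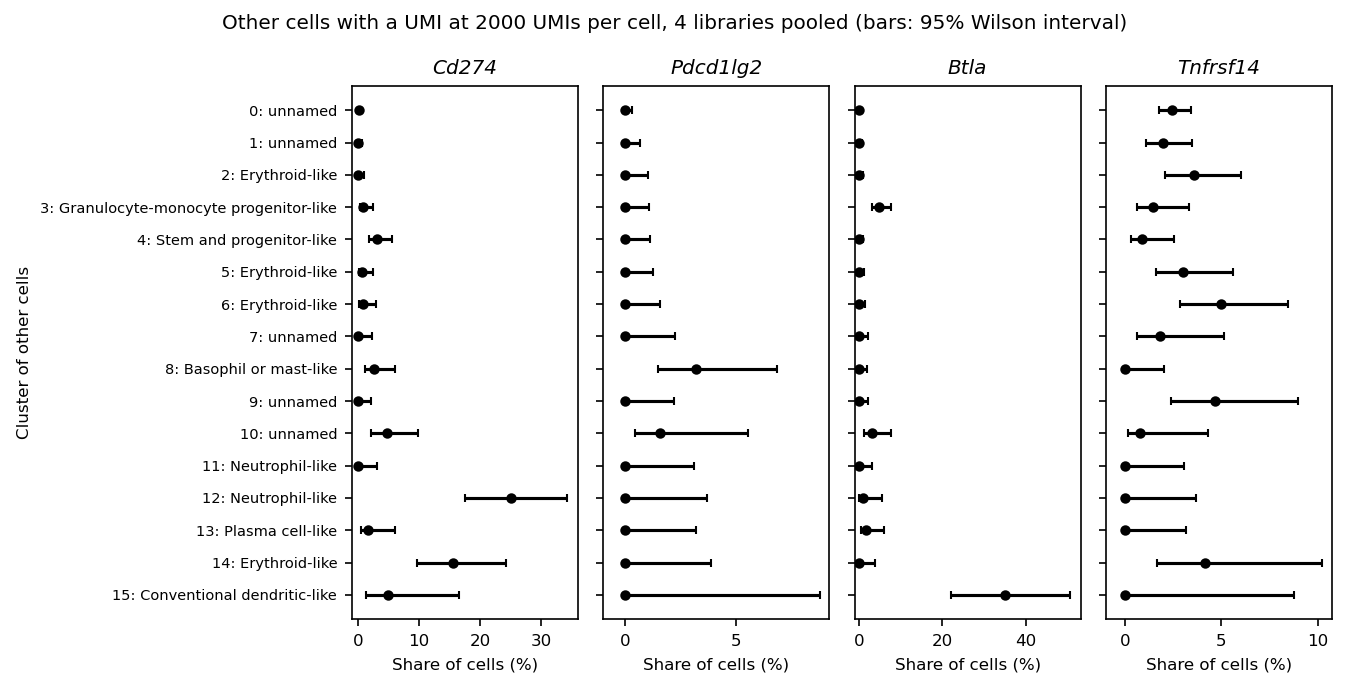
Share of thinned cells with a UMI (horizontal axis, percent, libraries pooled) of the ligand genes and Btla in each of the 16 clusters of other cells (rows). Bars are 95% Wilson intervals, which cover counting error only. Cd274 stands out in Neutrophil-like cluster 12 at 25.0% and Btla in Conventional dendritic-like cells at 35.0%.

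By genotype, none of the 8 genes passed the threshold in CD8+ Tc. In this comparison of 2 libraries with 2, 0.0276% of genes passed (3 of 10872), and 291 genes had an unadjusted p under 0.05, none of them among the 8. Pdcd1 sums were 313 and 286 CPM in the Havcr2fl/fl;E8icre/+ libraries and 357 and 308 CPM in the Havcr2fl/fl libraries, a log2 change of -0.15 ± 0.20. Lag3 sums were 277 and 255 CPM against 355 and 270 CPM (-0.23 ± 0.21), and Cd160 sums were 236 and 270 CPM against 279 and 283 CPM (-0.15 ± 0.19). The 2 groups overlapped for Pdcd1 and Lag3, and for Cd160 they lay apart by less than the distance between the 2 Havcr2fl/fl;E8icre/+ libraries. Ctla4 had a log2 change of -0.15 ± 0.22, Btla of 0.32 ± 0.25, Cd274 of -0.11 ± 0.25, Pdcd1lg2 of 0.37 ± 0.30 and Tnfrsf14 of 0.26 ± 0.46. The adjusted p by edgeR was 1.00 for each. On simulated counts of this depth 50.5% of the 200 genes given a log2 change of 1 were recovered, and 92.5% of those given a change of 2. Genes given no change were called as well, 20 of them in the first case and 9 in the second. Smaller changes were not simulated.

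In CD4+ Tc 0.0104% of genes passed by genotype (1 of 9650, and 307 at an unadjusted p under 0.05), and none of the 7 genes tested did. On simulated counts of this comparison 30.5% of the 200 genes given a log2 change of 1 were recovered, fewer than in CD8+ Tc. Of those given a change of 2, 90% were recovered. Genes given no change were called too, 12 in the first case and 22 in the second. Cd274 sums were 29.3 and 36.9 CPM in the Havcr2fl/fl;E8icre/+ libraries and 25.1 and 24.8 CPM in the Havcr2fl/fl libraries, a log2 change of 0.41 ± 0.25. The groups did not overlap, but the unadjusted p was 0.138 by edgeR. The other log2 fold changes lay between -0.19 (Cd160) and 0.17 (Ctla4), and Tnfrsf14 had too few UMIs to be tested. The difference of the genotype effect between CD8+ and CD4+ Tc passed for 0.0184% of genes (2 of 10878, and 484 at an unadjusted p under 0.05), and for none of the 8. Of all genes on the lists, Tigit alone passed, by genotype in CD8+ Tc and in the difference between the lineages.

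The share of cells with UMIs of both Pdcd1 and Lag3 was 22.2% and 19.0% of thinned CD8+ Tc in the Havcr2fl/fl;E8icre/+ libraries and 28.3% and 20.1% in the Havcr2fl/fl libraries. The difference of -3.65 percentage points had an exact two-sided permutation p of 0.667, where 2 libraries against 2 cannot give less than 0.333. In CD4+ Tc the shares were 9.68% and 7.78% against 8.55% and 8.53% (a difference of 0.191 percentage points). Without thinning the difference in CD8+ Tc had the opposite sign (4.96 percentage points), as it did when Havcr2fl/fl replicate 1 was left out (0.464). The labels number the mice and do not say more on how they were housed or processed, so p-values measure the spread between these 4 libraries.

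Finally, the genes most like each receptor were sought across the 17 Tc clusters, by Pearson's r of log2(CPM + 10) averaged over libraries, among 5937 genes. The clusters share libraries and genes that define them, so r is a description. Pdcd1 was most like Tox (r = 0.93), Mir155hg (0.93), Trps1 (0.91), Pitpnm2 and Tacc2. Lag3 was most like Gpr65 (0.94), Pacsin1, Ppcdc, Tox (0.92) and Kif13b, and Tox was thus the gene that both lists held. Cd160 was most like Ptch1 (0.90), Napsa, 2900026A02Rik, Sh2d2a and Chpt1, and Ctla4 most like Ncoa3 (0.96), Traf3, Dusp1, Ptpn7 and Dst. Btla was most like Cd9 (0.93), Slamf6 (0.92), Tbc1d4, Ccdc28b and Cd200, and Cd274 most like Fam168a (0.91), Grcc10, Jarid2, Rbm39 and Nxpe3. Among the 8 genes, Pdcd1 had an r of 0.85 with Lag3, 0.75 with Cd160, 0.15 with Btla and 0.13 with Ctla4. Pdcd1lg2 and Tnfrsf14 had a mean under 20 CPM and were not examined in this way.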

How the data were processed

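Spleen Tc of 4 mice were profiled with 10x Genomics 3′ chemistry, with 1 library per mouse. The deposited values are whole-number UMI counts per gene and barcode, which the authors made with Cell Ranger 6.1.2 on mm10, without normalization; the annotation is not given in the sources used here. The antibody tag against the donor haplotype was not used. The 8 genes and all lists were chosen with earlier results of these data known.

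A barcode was kept if it had 500 or more genes and 1000 or more UMIs, with 10% or less from mitochondrial genes. Of the 11632 cells so kept, 119 were taken out as doublets by Scrublet. These were 1 and 6 in the Havcr2fl/fl;E8icre/+ replicates 1 and 2, and 7 and 105 in the Havcr2fl/fl replicates 1 and 2. The expected rate would give 119, 65, 15 and 239 in the same order, so many doublets may remain. The ratios for pairs of genes in a cell were not read again with doublets taken out at that rate. Cells were clustered with Seurat 5.3.0 in R 4.3.3 (CCA, 30 dimensions, 20 neighbors, 2000 variable genes), without the 8 genes, Havcr2, sex genes and receptor variable genes. Tc were taken by cluster, and their lineage by UMIs of Cd8a or Cd8b1 and of Cd4. UMIs were summed per library and class, at least 10 cells each, and tested with edgeR 4.0.16 (filterByExpr, TMM, quasi-likelihood test, Benjamini-Hochberg adjustment over all genes, threshold 0.05). Genes that defined a split or lineage were left out of the counts of genes passed. The test was tried on simulated counts with known changes. Thinning drew 2000 UMIs per cell with a fixed seed. Genes named are the 8, up to 4 per list with the largest change past the threshold, the 5 most like each receptor, and markers; Hbb-bs was chosen after its values were seen. UMI counts limit precision as the intervals show, and these cover counting error only.

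Alternatives were DESeq2 1.42.0, its size factors in edgeR, no filter on low counts, stricter cells (1000 genes, 5% mitochondrial UMIs), doublets at 0.8% per 1000 barcodes, Tc by a Cd3 UMI, other use of the block, splits read after thinning, other resolutions, no thinning, and each library left out. Python 3.11.15 with scanpy 1.11.5 and matplotlib 3.10.9 did the rest.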

Additional observations from a re-analysis of the deposited data

Results flagged for a closer look

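Among 64 groups of 4 libraries, 6 had 1 library far from the other 3. By chance a single group is flagged in this way about 1 time in 20. The groups share cells and UMIs and are not independent, so the number flagged cannot be judged by that rate. Tnfrsf14 in all CD8+ Tc of Havcr2fl/fl replicate 2 was 2.12 CPM against 3.38 to 3.63 CPM in the others, and 2.17 CPM against 3.37 to 3.6 CPM in CD8+ Tc without Havcr2. Btla in CD8+ Tc without Havcr2 was 12.4 CPM in the same library against 18.0 to 18.9 CPM. Lag3 in Havcr2fl/fl replicate 1 was 389 CPM against 271 to 290 CPM in CD8+ Tc without Tcf7 and 305 CPM against 248 to 257 CPM in those without Havcr2. Cd160 in CD8+ Tc without Havcr2 was 219 CPM in Havcr2fl/fl;E8icre/+ replicate 1 against 274 to 281 CPM.

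Tigit, the gene of another inhibitory receptor, was the one gene of the lists whose genotype effect differed between the lineages, by -3.34 on the log2 scale (adjusted p = 0.00675 by edgeR). Its sums were 4.30 and 3.97 CPM in CD8+ Tc of the Havcr2fl/fl;E8icre/+ libraries against 22.3 and 21.3 CPM in the Havcr2fl/fl libraries, and 18.9 and 26.9 CPM against 11.4 and 11.6 CPM in CD4+ Tc. The log2 fold change was -2.43 in CD8+ Tc (adjusted p = 0.0141 by edgeR) and 0.96 in CD4+ Tc (adjusted p = 1.00). Over the alternatives it ran from -2.48 to -2.38 in CD8+ Tc, where only the replicate block lost the call (adjusted p = 0.235), and the difference between the lineages from -3.66 to -3.03, where only the fit without a block did (adjusted p = 0.0645). The library labelled Havcr2fl/fl;E8icre/+ replicate 1, whose Havcr2 lay between the 2 controls, was about as low in Tigit as replicate 2.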

How the results depend on the processing

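Of the 8 genes, 7 passed between CD8+ and CD4+ Tc under all 11 alternatives, and 0 passed by genotype in either lineage or in the difference between lineages. In the split by Havcr2, 2 passed in the fit given above, 1 with DESeq2, 1 in stricter cells, 1 in Tc by a Cd3 UMI, 0 with no replicate block, and 0 to 3 with a library left out. The replicate numbers of the genotypes are not stated to pair the mice. The correlation of same-numbered libraries was -0.127 in CD8+ and -0.0640 in CD4+ Tc. With 2 libraries per genotype the other pairing has the same value with its sign turned, so this cannot decide on a pairing. With the replicate number as a block 0 of the 8 and 0 of all genes passed by genotype in both lineages. Without the mouse as a block 7, 4, 4, 4 and 0 of the 8 passed between lineages and in the splits by Foxp3, Tcf7, Mki67 and Havcr2; in the Mki67 split Ctla4 (adjusted p = 0.159 by edgeR) and Cd160 (0.0813) were lost. Signs that turned were of log2 fold changes not called. With a library left out, these ran by genotype in CD8+ Tc from -0.343 to 0.0901 (Cd274), -0.0819 to 0.731 (Pdcd1lg2), -0.38 to 0.12 (Ctla4) and -0.0915 to 0.671 (Tnfrsf14), and in CD4+ Tc from -0.221 to 0.0215 (Pdcd1, 0.0503 in Tc by a Cd3 UMI), -0.0842 to 0.226 (Lag3), -0.0649 to 0.365 (Ctla4), -0.70 to 0.17 (Cd160) and -0.11 to 0.40 (Btla). In the splits they ran from -0.834 to 0.0315 (Pdcd1lg2) and -0.38 to 0.20 (Cd274) by Foxp3, from -0.116 to 0.0242 (Ctla4, 0.12 with the split read after thinning) by Tcf7, and from -0.71 to 0.13 (Pdcd1lg2) and -0.0546 to 0.196 (Cd160) by Havcr2. Btla passed in the Mki67 split in Tc by a Cd3 UMI (-0.58, adjusted p = 0.0426 by edgeR) and without Havcr2fl/fl replicate 1. The genotype difference in cells with both Pdcd1 and Lag3 ran from -7.76 to 0.464 percentage points in CD8+ Tc with a library left out (4.96 without thinning) and from -0.757 to 1.14 in CD4+ Tc (-0.0294 with doublets by the expected rate). The causes were not tested.

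Counts of all genes passed ran over the alternatives from 0 to 100 by genotype in CD8+ Tc (3 above; 100 without a filter on low counts), 0 to 43 in CD4+ Tc (1 above), 1019 to 3069 between lineages (2657), 255 to 653 by Foxp3 (517), 680 to 1825 by Tcf7 (1540), 1902 to 5653 by Mki67 (4173), 39 to 723 by Havcr2 (369) and 0 to 57 for the difference between lineages (2). Of 74 shares in named clusters, 63 moved by more than the SD between libraries without thinning, where each cell keeps more UMIs. For names found again, 14 shares moved and 34 did not at the lower resolution, and 21 moved and 47 did not at the higher. With a library left out, 28 shares in Tc clusters moved and 212 did not. No cluster was TTEX-like at a lower or higher resolution. The leading genes of the TTEX-like cluster, of 730 cells above, included Ltf, Glp1r, Mrc2 and Ccl3. The cluster led by these genes was unnamed at the lower resolution (677 cells) and Teff-like at the higher (532 cells). Differences between TTEX-like and Teff-like or TPEX-like cells thus rest on the main resolution. The interferon-stimulated-like CD8+ cluster, of 247 cells above, had 39 cells at the lower and 38 at the higher resolution. Trat1, Klrb1f and P2rx7, also among its leading genes above, led an unnamed cluster of 222 cells at the higher resolution. That cluster had 3 of 7 interferon-stimulated markers raised and 0 among its 10 leading genes. The short-term effector-like cluster, of 83 cells above, had 438 cells at the lower and 83 at the higher resolution. At the lower resolution its leading genes included Ifitm1, Ly6c2 and Klf2. These also led CD8+ cluster 5 above, where Pdcd1 was found in 27.3% and Lag3 in 17.3% of thinned cells. No Foxp3 split without Havcr2fl/fl replicate 1 was made since it was not in that comparison.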
